A study of Homo sapiens with 6 samples.

Results

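The 10 genes described here act in blood clotting or are secreted mainly by the liver, and their transcripts were compared between A549-TIPARP cells and A549-GFP cells. They were selected by gene symbol among such genes that A549 cells express, with earlier results of these data known. They encode the 3 chains of fibrinogen (FGA, FGB and FGG), tissue factor (F3), 2 Kunitz-type inhibitors (TFPI and TFPI2), coagulation factor V (F5), 2 protease-activated receptors (F2R and F2RL1) and alpha-1-antitrypsin (SERPINA1). All 10 symbols were found once in each of the 6 deposited tables, among 53826 gene entries. All 10 had more than 2 TPM in all 6 libraries, so that none entered the 13181 analysed genes through 1 line alone. TPM is the share of a gene among the transcripts of a library, corrected for transcript length.

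A549 cells derive from a human lung adenocarcinoma. The A549-TIPARP line stably overexpresses TIPARP, a mono-ADP-ribosyltransferase induced by dioxin, from a retroviral vector, and A549-GFP cells carry GFP in the same kind of vector. Both lines had received a retrovirus, and no untransduced A549 cells were compared here. Each line gave 3 libraries, numbered 1 to 3 by experiment in the sample titles, and nothing in the labels says whether the numbers mark separate cultures, so p-values measure only the spread between these libraries. TIPARP itself had 6.79, 11.4 and 3.68 TPM with GFP and 131, 90.5 and 123 TPM with TIPARP (replicates 1 to 3 of each line in this order here and in every list of 3 values below), so each library matched its label. Reads of the transgene and of the endogenous gene cannot be told apart in these values. The 5 epithelial markers EPCAM, CDH1, KRT8, KRT18 and KRT7 summed to between 10771 and 23386 TPM in A549-GFP libraries and to between 18533 and 22171 TPM in A549-TIPARP libraries. The lowest sums were those of A549-GFP replicate 2 and A549-TIPARP replicate 3, 2 libraries that also stand apart below. KRT8 had 8947, 3855 and 9127 TPM with GFP and 9287, 8753 and 6959 TPM with TIPARP. KRT18 had 10108, 4176 and 11876 TPM with GFP and 10399, 10441 and 9272 TPM with TIPARP. The part of this difference in the results was not tested. All 6 endothelial markers (PECAM1, CDH5, KDR, TEK, TIE1 and ERG) were listed at the floor of 1 TPM in every library, and of 6 mesenchymal markers 4 were at the floor in every library. Counting only values above the floor, the mesenchymal markers summed to 1.09 to 1.44 TPM in A549-GFP and 1.64 to 2.56 TPM in A549-TIPARP libraries, and their part in the results was not tested.

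Clotting starts when tissue factor on a cell surface binds factor VII, and the cascade that follows makes thrombin. Thrombin cuts fibrinogen into fibrin and also cuts some of the protease-activated receptors, which signal into the cell. TFPI blocks the first step, and TFPI2 is a relative that mainly inhibits plasmin and other matrix-degrading proteases. The liver makes most of the plasma fibrinogen, factor V and alpha-1-antitrypsin. Fibrinogen and alpha-1-antitrypsin belong to the acute phase proteins, which interleukin-6 induces through STAT3 and C/EBP factors. Lung epithelial cells and A549 cells can also produce fibrinogen.

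One library of each line lay farther from its line than the others. Over the 13181 genes, A549-GFP replicate 2 deviated by 0.621 (root mean square, log2 scale) from the average of the A549-GFP libraries, and A549-TIPARP replicate 3 deviated by 0.330 from that of the A549-TIPARP libraries. The other A549-GFP libraries deviated by 0.361 and 0.400 and the other A549-TIPARP libraries by 0.185 and 0.253. Some library of each line must lie farthest from its average, and A549-TIPARP replicate 3 deviated less than every A549-GFP library. The labels give no batch that would set A549-GFP replicate 2 and A549-TIPARP replicate 3 apart, and the tables hold no depth. The 10 genes and the ratios between them are therefore also given without these 2 libraries.

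The 3 fibrinogen genes lie together on chromosome 4 of hg38, within 49957 bases from 154563011 to 154612967. FGB is on the plus strand and has 8 exons in its canonical GENCODE 44 transcript, while FGA (5 exons) and FGG (9 exons) are on the minus strand. F2R (76716126 to 76735770) and F2RL1 (76818933 to 76835315) are neighbours on the plus strand of chromosome 5, 83162 bases apart. F3 (94529173 to 94541759) and F5 (169511951 to 169586588) are both on the minus strand of chromosome 1, far from each other. TFPI is on chromosome 2 (187464230 to 187565760), TFPI2 on chromosome 7 (93885396 to 93890753) and SERPINA1 on chromosome 14 (94376747 to 94390693), all on the minus strand. These spans cover every transcript of a gene, so that for FGG, F5, F2RL1, TFPI and SERPINA1 the start of the canonical transcript lies inside the span.

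Promoter sequences are shown for the 6 genes that varied most between libraries, FGA, FGB, FGG, F5, TFPI and SERPINA1. Each is the 250 bases before the start site of the canonical transcript, from RefSeq on GRCh38.p14, 5′ to 3′ on the strand of the gene. Capitals mark matches, on either strand, to TTGCNNAA (C/EBP), CTGGGA (the core of the interleukin-6 elements of acute phase genes), TATAAA (the box bound by TBP) and GCGTG (the core of the element that AHR, the inducer of TIPARP, binds).
FGA (chr4:154590743-154590992, minus strand): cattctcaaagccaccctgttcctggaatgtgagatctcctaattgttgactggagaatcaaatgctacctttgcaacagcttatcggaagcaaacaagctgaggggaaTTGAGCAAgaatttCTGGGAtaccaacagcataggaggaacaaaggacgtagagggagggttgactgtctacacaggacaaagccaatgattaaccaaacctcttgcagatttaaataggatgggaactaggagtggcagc
FGB (chr4:154562761-154563010, plus strand): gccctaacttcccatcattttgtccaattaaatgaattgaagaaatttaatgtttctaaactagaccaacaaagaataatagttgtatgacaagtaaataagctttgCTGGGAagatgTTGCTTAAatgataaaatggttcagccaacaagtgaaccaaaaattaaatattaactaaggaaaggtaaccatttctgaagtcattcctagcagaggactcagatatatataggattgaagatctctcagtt
FGG (chr4:154612657-154612906, minus strand): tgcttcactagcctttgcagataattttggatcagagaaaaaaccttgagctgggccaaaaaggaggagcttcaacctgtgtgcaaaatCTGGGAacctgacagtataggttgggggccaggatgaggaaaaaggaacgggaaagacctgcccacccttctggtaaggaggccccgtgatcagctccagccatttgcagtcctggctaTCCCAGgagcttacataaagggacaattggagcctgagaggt
F5 (chr1:169586482-169586731, minus strand): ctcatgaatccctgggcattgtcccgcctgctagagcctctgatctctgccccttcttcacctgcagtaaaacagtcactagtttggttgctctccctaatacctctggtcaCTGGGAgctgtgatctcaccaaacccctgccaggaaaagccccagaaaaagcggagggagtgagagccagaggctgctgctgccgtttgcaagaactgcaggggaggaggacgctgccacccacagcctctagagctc
TFPI (chr2:187554436-187554685, minus strand): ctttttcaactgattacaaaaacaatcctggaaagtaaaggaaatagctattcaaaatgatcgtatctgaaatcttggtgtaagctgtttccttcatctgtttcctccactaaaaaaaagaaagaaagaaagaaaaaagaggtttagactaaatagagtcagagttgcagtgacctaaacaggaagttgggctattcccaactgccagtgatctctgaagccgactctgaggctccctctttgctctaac
SERPINA1 (chr14:94388603-94388852, minus strand): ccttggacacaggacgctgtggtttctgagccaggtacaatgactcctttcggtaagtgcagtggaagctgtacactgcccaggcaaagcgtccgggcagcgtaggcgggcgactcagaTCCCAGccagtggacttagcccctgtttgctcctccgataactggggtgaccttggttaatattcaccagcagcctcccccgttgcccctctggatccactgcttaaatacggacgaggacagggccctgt

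FGA and FGB each held 1 C/EBP motif and 1 interleukin-6 element core, in the arrangement that the map of motif matches shows. The matches stood close to each other in both genes, with first bases 141 and 127 bases before the start site in FGA and 132 and 143 in FGB. FGG held the interleukin-6 element core once on each strand, with first bases at 161 and 42, and none of the other motifs in this window. SERPINA1 and F5 each held 1 interleukin-6 element core, and the TFPI window held none of the 4 motifs. Promoters were matched for 9 of the 10 genes, all but F2R. Among the other 3, the F2RL1 window held the interleukin-6 element core and the AHR core, the F3 window held TATAAA, and the TFPI2 window held no match. No 2 matches overlapped. Of 27305 promoter windows of this length, TTGCNNAA was found in 9.13%, CTGGGA in 28.8%, TATAAA in 11.1% and GCGTG in 31.9%. These shares are the background for short motifs, and a match is not a binding site.

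**Figure D1:**
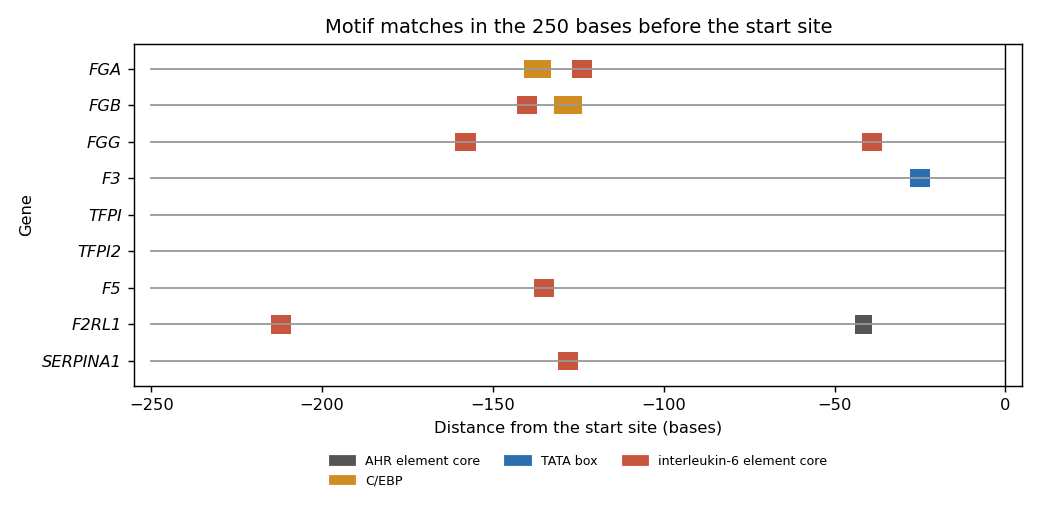
Matches to 4 motifs (coloured boxes) in the 250 bases before the canonical start site of 9 genes, with distance from the start site in bases on the x axis and genes in rows. FGA and FGB each hold a C/EBP motif beside an interleukin-6 element core, and TFPI and TFPI2 hold no match.

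The levels of the 10 genes covered a wide range on the TPM scale, which is corrected for length. TFPI2 was the highest of them in all 6 libraries, with a geometric mean of 104 TPM over all 6. TFPI (47.7), F5 (41.3), FGA (36.0) and F2RL1 (35.3) followed, and then FGB (16.2), FGG (10.2), F2R (9.78), SERPINA1 (5.93) and F3 (3.58). The ranges over libraries overlapped for all 9 pairs of neighbours in this order. Within libraries, 3 of the 9 pairs kept their order in all 6, namely TFPI2 above TFPI, F2RL1 above FGB and FGB above FGG, and the other 6 pairs changed order in at least 1 library. F3 was the lowest in 4 libraries and SERPINA1 in the other 2.

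Limma, a linear model with shared variance estimates, called none of the 10 genes at an adjusted p of 0.05, where it called 0.0152% of all genes (2 genes). None had an unadjusted p-value under 0.05 either, where 3.85% of all genes did. None was past 2-fold in the mean log2 TPM, against 1.96% of all genes. The mean was higher with TIPARP for 4 of the genes and lower for 6, with a median log2 difference of -0.09, against -0.07 over all genes. The lines did not overlap for 1 of the 10 genes, F2R, against 8.91% of all genes in either direction and 5.36% with A549-TIPARP higher. Limma was run on log2(TPM + 1), where the pseudocount lowers the difference of genes with low TPM. For 6 of the 10 genes a 2-fold difference in at least 1 direction lay inside the 95% interval, so that these data do not bound the difference below 2-fold for them.

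**Figure D2:**
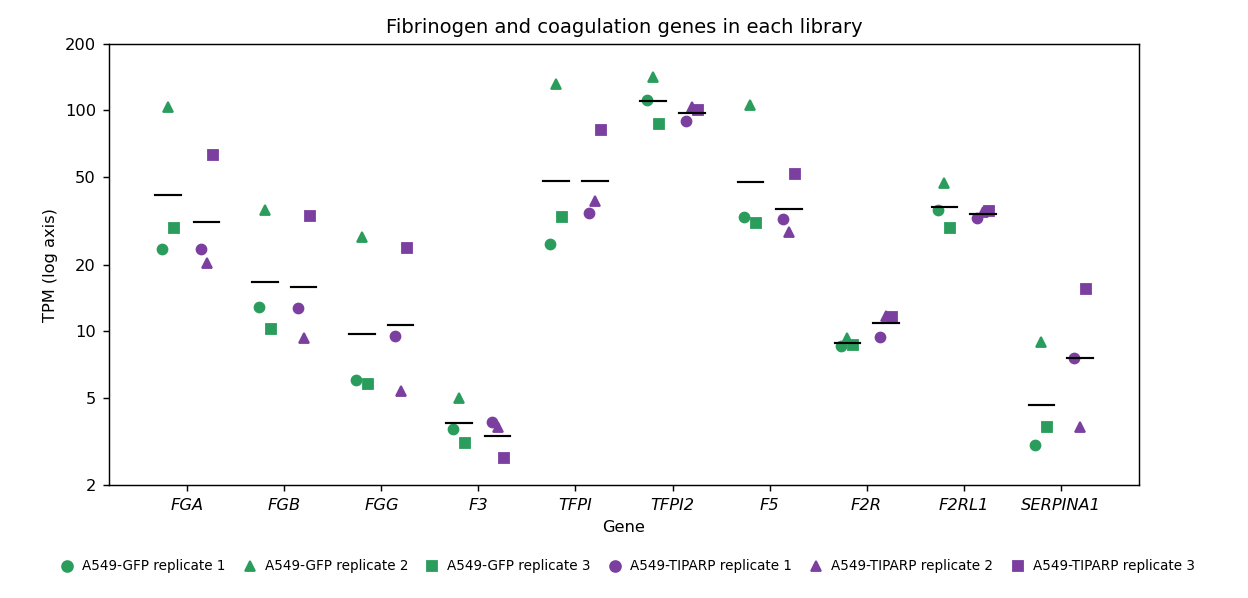
TPM (log axis) of the 10 genes in each of the 6 libraries, with A549-GFP in green, A549-TIPARP in purple, symbols for replicates 1 to 3 and a black bar at the geometric mean of each line. Replicate 2 of A549-GFP and replicate 3 of A549-TIPARP are the highest libraries of their lines for FGA, FGB, FGG, TFPI, F5 and SERPINA1, while among the 10 genes only F2R has lines that do not overlap.

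FGA, which encodes the fibrinogen chain that carries fibrinopeptide A, had 23.5, 104 and 29.3 TPM with GFP. With TIPARP it had 23.6, 20.4 and 62.8 TPM. Replicate 2 of A549-GFP and replicate 3 of A549-TIPARP stood far above the other 4 libraries, which lay close together, and the lines overlapped. The mean log2 TPM was 5.38 ± 1.16 (SD, n = 3) in A549-GFP cells and 4.96 ± 0.88 (SD, n = 3) in A549-TIPARP cells. On the limma scale the log2 difference was -0.41 (standard error 0.59, 95% interval -1.74 to 0.93, adjusted p = 0.994).

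FGB, the chain that carries fibrinopeptide B, had 12.8, 35.5 and 10.2 TPM with GFP and 12.8, 9.28 and 33.3 TPM with TIPARP. The same pair of libraries was high, at nearly the same level in both lines. By limma, the log2 difference was -0.07 (standard error 0.54, 95% interval -1.30 to 1.15, adjusted p = 0.998).

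FGG, the chain that holds sites for fibrin assembly and crosslinking, had 5.999, 26.6 and 5.74 TPM with GFP and 9.46, 5.37 and 23.7 TPM with TIPARP. Again the lines overlapped and each had 1 high library. Limma gave a log2 difference of 0.11 (standard error 0.63, 95% interval -1.33 to 1.55, adjusted p = 0.998). In A549-GFP replicate 2 the 3 genes were 3.96-fold (FGA), 3.10-fold (FGB) and 4.54-fold (FGG) above the mean of the other A549-GFP libraries. In A549-TIPARP replicate 3 they were 2.86-fold, 3.06-fold and 3.32-fold above the mean of the other A549-TIPARP libraries. These folds are those of geometric means.

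A fibrinogen molecule holds 2 copies of each chain. FGA transcripts stood above FGB and FGB above FGG in all 6 libraries, and the ratios between them moved less than the levels did. FGB was 0.545, 0.341 and 0.348 of FGA in TPM with GFP and 0.541, 0.454 and 0.529 of it with TIPARP. FGG was 0.468, 0.751 and 0.561 of FGB with GFP and 0.741, 0.579 and 0.712 of it with TIPARP. Both ratios overlapped between the lines. In all, 4 ratios of gene pairs were tested, on log2(TPM + 1), with a two-sided exact permutation test over 3 and 3 libraries, which cannot give a p below 0.1. The FGB to FGA ratio was 0.33 higher on the log2 scale in A549-TIPARP cells (exact p = 0.4, adjusted p = 0.533), and the FGG to FGB ratio was 0.19 higher (exact p = 0.4, adjusted p = 0.533). These sizes moved with single libraries. For FGB to FGA the difference was 0.55 without A549-GFP replicate 1, 0.20 without A549-GFP replicate 2 and 0.18 without the 2 libraries that stood apart. For FGG to FGB it was 0.049 without A549-GFP replicate 1, 0.34 without A549-GFP replicate 2 and 0.32 without those 2 libraries, and 0.12 without A549-TIPARP replicate 1.

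F3, the cell-surface initiator of clotting, had 3.61, 4.95 and 3.12 TPM with GFP and 3.87, 3.69 and 2.66 TPM with TIPARP. It was low in every library, the lines overlapped, and A549-TIPARP replicate 3 was the lowest library rather than the highest of its line. The limma log2 difference was -0.15 (standard error 0.24, 95% interval -0.69 to 0.40, adjusted p = 0.994).

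TFPI, its inhibitor, had 24.8, 132 and 33.1 TPM with GFP and 34.5, 39.1 and 81.3 TPM with TIPARP. It followed the fibrinogen genes, with the same 2 libraries high and an overlap between the lines. The mean log2 TPM was 5.57 ± 1.29 in A549-GFP cells and 5.58 ± 0.67 in A549-TIPARP cells (SD, n = 3), and the 95% interval of the limma difference ran from -1.34 to 1.34.

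TFPI transcripts exceeded those of F3 in every library. TFPI was 6.87, 26.7 and 10.6 times F3 in TPM with GFP and 8.91, 10.6 and 30.6 times F3 with TIPARP. The excess was largest in the library of each line with the most TFPI. The log2 ratio of F3 to TFPI differed by -0.15 between the lines, from -3.34 ± 1.03 to -3.48 ± 0.88 (SD, n = 3; exact permutation test, p = 0.7, adjusted p = 0.7). It was -0.21 without the 2 libraries that stood apart, and its sign turned without A549-GFP replicate 1 (0.28) or A549-TIPARP replicate 3 (0.36).

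TFPI2 had 111, 142 and 86.8 TPM with GFP and 89.5, 103 and 100.4 TPM with TIPARP. Unlike TFPI it varied little, and the highest library was 1.63 times the lowest, against 5.32 times for TFPI. On the limma scale the log2 difference was -0.18 (standard error 0.21, 95% interval -0.65 to 0.29, adjusted p = 0.994). Leaving out A549-GFP replicate 2 gave -0.0085, and leaving out replicate 3 of that line gave -0.36.

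F5, the cofactor of the enzyme complex that makes thrombin, had 32.9, 106 and 31.0 TPM with GFP and 32.2, 28.1 and 51.3 TPM with TIPARP. Its high libraries were those of the fibrinogen genes, and the lines overlapped. A549-GFP replicate 2 was 3.31-fold above the other A549-GFP libraries, and A549-TIPARP replicate 3 was 1.71-fold above the others of its line. By limma, the log2 difference was -0.40 (standard error 0.45, 95% interval -1.44 to 0.64, adjusted p = 0.994).

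F2R, which encodes PAR1, the main thrombin receptor, had 8.52, 9.26 and 8.61 TPM with GFP and 9.41, 11.8 and 11.6 TPM with TIPARP. All 3 A549-TIPARP libraries were above all A549-GFP libraries, although A549-TIPARP replicate 1 was only just above A549-GFP replicate 2. The mean log2 TPM was 3.14 ± 0.07 in A549-GFP cells and 3.44 ± 0.18 in A549-TIPARP cells (SD, n = 3), a 1.24-fold higher mean. Limma gave a log2 difference of 0.28 (standard error 0.20, 95% interval -0.18 to 0.74, unadjusted p = 0.204, adjusted p = 0.994). It ranged from 0.23 to 0.37 over all alternatives, and without the 2 libraries that stood apart the difference in mean log2 TPM was 0.30, against 0.31 with them.

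F2RL1, which encodes PAR2, a receptor cut by trypsin-like proteases and by the tissue factor complex but not by thrombin, had 35.3, 47.0 and 29.4 TPM with GFP. With TIPARP it had 32.4, 34.8 and 34.9 TPM. These values overlapped, and the limma log2 difference was -0.10 (standard error 0.21, 95% interval -0.58 to 0.38, adjusted p = 0.994). F2RL1 exceeded F2R 4.15, 5.08 and 3.41 times with GFP and 3.44, 2.96 and 3.01 times with TIPARP. The log2 ratio of F2R to F2RL1 was 0.38 higher in A549-TIPARP cells, from -1.94 ± 0.28 to -1.56 ± 0.11 (SD, n = 3; exact permutation test, p = 0.2, adjusted p = 0.533), and its libraries overlapped between the lines. The difference was 0.24 without A549-GFP replicate 2 and 0.21 without the 2 libraries that stood apart.

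SERPINA1, the secreted inhibitor of neutrophil elastase, had 3.06, 8.92 and 3.68 TPM with GFP and 7.58, 3.66 and 15.6 TPM with TIPARP. It had the largest mean difference of the 10 genes, and its lines overlapped. The mean log2 TPM was 2.22 ± 0.83 in A549-GFP cells and 2.92 ± 1.04 in A549-TIPARP cells (SD, n = 3), a 1.63-fold higher mean. The limma log2 difference was 0.60 (standard error 0.49, 95% interval -0.52 to 1.73, adjusted p = 0.994). The difference in mean log2 TPM was past 2-fold without A549-GFP replicate 2 (1.17) and without A549-TIPARP replicate 2 (1.22), and it was 0.40 without A549-GFP replicate 1 and 0.18 without A549-TIPARP replicate 3.

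**Figure D3:**
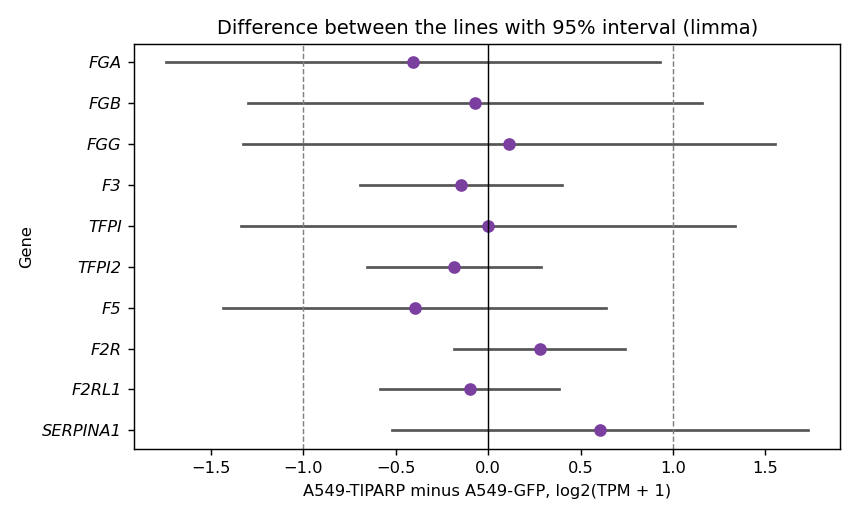
Limma difference between A549-TIPARP and A549-GFP cells on log2(TPM + 1) (points) with its 95% interval (lines) for the 10 genes. All 10 intervals hold 0; those of FGA, FGB, FGG, TFPI, F5 and SERPINA1 reach past a 2-fold difference (dashed lines at -1 and 1) on at least 1 side.

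**Figure D4:**
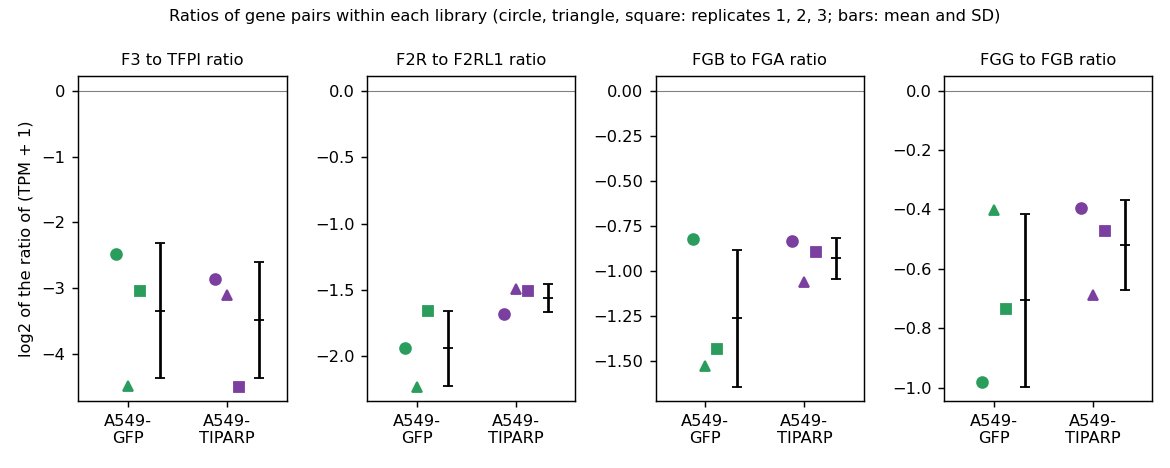
Log2 ratio of (TPM + 1) of 4 gene pairs in each library, with A549-GFP in green, A549-TIPARP in purple, and black bars for the mean and SD of 3 libraries; each panel has its own y axis. All 4 ratios overlap between the lines, and the F3 to TFPI ratio is lowest in replicate 2 of A549-GFP and replicate 3 of A549-TIPARP.

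The 10 genes fell into those that moved with 2 libraries and those that did not. A549-GFP replicate 2 was the highest of its line for all 10 genes, as it was for 62.5% of all genes, and it was more than 2-fold above the other A549-GFP libraries for 6 of them, against 18.0% of all genes. A549-TIPARP replicate 3 was the highest of its line for 7, against 35.5% of all genes, and more than 2-fold above the others for 5, against 2.53%. Both excesses passed 2-fold for FGA, FGB, FGG, TFPI and SERPINA1, and for 177 genes (1.34%) of all those analysed. F5 passed 2-fold in A549-GFP replicate 2 alone, and F2R, F2RL1, F3 and TFPI2 in neither. The median excess of the 10 genes was 1.52 on the log2 scale in A549-GFP replicate 2 and 0.96 in A549-TIPARP replicate 3, against 0.38 and -0.05 over all genes. This grouping was made after the values were seen and has no test. What set the 2 libraries apart was not tested, and in RNA from whole cultures more expressing cells and more RNA per cell cannot be told apart.

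**Figure D5:**
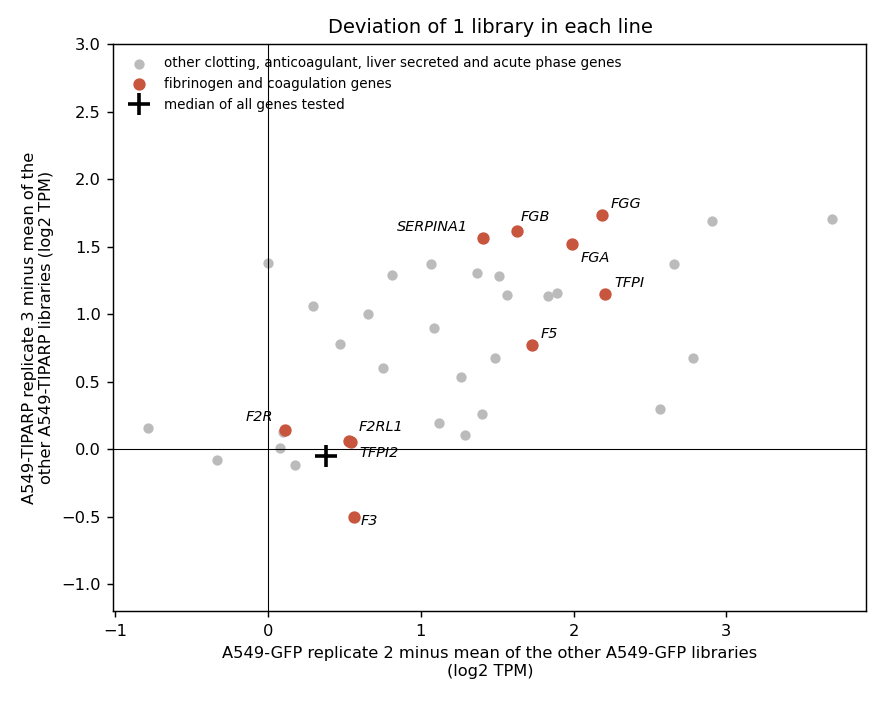
Excess of A549-GFP replicate 2 (x axis) and of A549-TIPARP replicate 3 (y axis) over the mean of the other 2 libraries of the same line, in log2 TPM, for the 10 genes (red), other listed genes (grey) and the median of all genes (cross). FGA, FGB, FGG, TFPI and SERPINA1 lie above 1 on both axes, whereas F2R, F2RL1 and TFPI2 lie within 0.55 of 0 on both.

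With these 2 libraries left out, the other 4 gave small differences for fibrinogen. The difference in mean log2 TPM was then -0.26 for FGA, -0.07 for FGB, 0.28 for FGG, -0.09 for F5, 0.36 for TFPI and 0.65 for SERPINA1. It was 0.30 for F2R, 0.06 for F2RL1, 0.17 for F3 and -0.03 for TFPI2. Limma called none of the 10 genes at an adjusted p of 0.05 in this fit, which compared 2 libraries with 2.

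By the root mean square difference of the centred log2(TPM + 1) profile over the 6 libraries, the genes most like the mean of FGA, FGB and FGG were sought among all 13181 genes. Outside the lists used here they were ASS1 (0.13), the urea cycle enzyme argininosuccinate synthase, SNAP25 (0.14), a vesicle fusion protein, ERBB3 (0.18), a receptor of the EGF receptor family, P4HA3 (0.19), a subunit of prolyl 4-hydroxylase, and CRYAB (0.19), a small heat shock protein. ASS1 had 22.05, 75.0 and 18.45 TPM with GFP and 28.8, 17.8 and 66.7 TPM with TIPARP. With 6 libraries such likeness is a description only. FGL1, a fibrinogen-like liver protein, was the nearest of the listed genes that encode no fibrinogen chain (0.24).

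Among the other clotting factors, 7 of 14 listed genes were analysed, and limma called none after adjustment. It gave 1 of the 7, F2, an unadjusted p-value under 0.05, as it did for 3.85% of all genes. F2 encodes prothrombin, the precursor of thrombin. It had 4.98, 12.3 and 4.39 TPM with GFP and 3.19, 2.87 and 3.62 TPM with TIPARP. All A549-TIPARP libraries were below all A549-GFP libraries, and the 3 A549-TIPARP libraries lay close together. The difference in mean log2 TPM was -1.01, and -0.54 without A549-GFP replicate 2 (limma unadjusted p = 0.0404, adjusted p = 0.994 with all libraries). F7, the partner of tissue factor, and F10, the enzyme that makes thrombin, were chosen only once their values had been seen. F7 had 3.26, 11.1 and 2.74 TPM with GFP and 5.60, 3.72 and 10.2 TPM with TIPARP, with the same 2 libraries high as for fibrinogen. F10 had 1.83, 3.52 and 1.54 TPM with GFP and 3.65, 2.26 and 7.44 TPM with TIPARP, and its lines overlapped. MCFD2 and LMAN1, the cargo receptor that carries factors V and VIII out of the endoplasmic reticulum, were the highest of the list, with 63.2 to 163 and 41.7 to 61.6 TPM. F9, F11, F13A1, VWF, KNG1 and KLKB1 were listed at the floor in all libraries.

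All 3 genes of the vitamin K cycle were analysed, and none had an unadjusted p-value under 0.05. VKORC1, the reductase that warfarin blocks, had 107 to 161 TPM, and VKORC1L1, its relative, had 25.8 to 39.7 TPM. Of 11 listed anticoagulant genes 6 were analysed, and 1 of them, ANXA5, had an unadjusted p-value under 0.05, against 3.85% of all genes. ANXA5, which shields phosphatidylserine from clotting factors, had 347, 360 and 291 TPM with GFP and 462, 485 and 436 TPM with TIPARP. Its lines did not overlap, and the limma log2 difference was 0.47 (standard error 0.15, unadjusted p = 0.0139, adjusted p = 0.966). PROCR, the receptor of protein C, had 95.9, 81.9 and 111 TPM with GFP and 115, 125 and 114 TPM with TIPARP, a limma log2 difference of 0.30 (adjusted p = 0.994), and the difference in mean log2 TPM of 0.31 became 0.20 without A549-GFP replicate 2. Of 3 further genes, the receptors F2RL2 and F2RL3 and the matrix protein THBS1, F2RL3 was at the floor. F2RL2 and THBS1 were at 1.96 to 4.28 and 2.16 to 3.78 TPM, and neither had an unadjusted p-value under 0.05.

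Fibrinolysis removes fibrin, and 7 of its 10 listed genes were analysed. Of these 7, 1 had an unadjusted p-value under 0.05, against 3.85% of all genes. This was SERPINF2, which encodes the plasmin inhibitor alpha-2-antiplasmin. It had 2.17, 2.10 and 2.09 TPM with GFP and 5.07, 3.32 and 4.57 TPM with TIPARP. The lines did not overlap, and the difference in mean log2 TPM was 1.004, just past 2-fold. On the limma scale the log2 difference was 0.75 (standard error 0.22, unadjusted p = 0.00801, adjusted p = 0.856). Leaving out any 1 library, the difference in mean log2 TPM was between 0.88 and 1.18. ANXA2 and S100A10, which form a plasminogen-binding complex, were the highest of the list. ANXA2 had 1425 to 3896 TPM and S100A10 905 to 2134 TPM, and both were lowest in A549-GFP replicate 2.

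Of 22 listed liver secreted proteins 9 were analysed and 10 were listed at the floor in all libraries, among them AFP and APOB. Of the 9, 7 were above 2 TPM in at least 1 library of each line. Both A549-TIPARP replicate 3 and A549-GFP replicate 2 were the highest of their lines for these 7, where they were the highest for 35.5% and 62.5% of all genes analysed. VTN, which encodes vitronectin, had 37.0, 216 and 31.7 TPM with GFP and 50.2, 23.7 and 89.1 TPM with TIPARP. APOH, a phospholipid-binding plasma protein, had 44.5, 88.0 and 38.5 TPM with GFP and 61.7, 48.0 and 102 TPM with TIPARP. Both showed the 2 high libraries of the fibrinogen genes. TF, which encodes transferrin, had from the floor of 1 to 1.78 TPM in A549-GFP and 2.42 to 2.70 TPM in A549-TIPARP libraries. TF and TTR, which encodes transthyretin and was chosen after its values were seen, passed the filter of 2 TPM through A549-TIPARP libraries alone, TTR through replicate 3 alone. They are not in the count of 7, and their values are a description.

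Of 13 listed acute phase proteins 6 were analysed, and none had an unadjusted p-value under 0.05. Leaving aside HPX, the heme carrier hemopexin, which passed the filter through A549-TIPARP replicate 3 alone and was chosen after its values were seen, A549-GFP replicate 2 was the highest of its line for 5 of 5 and A549-TIPARP replicate 3 for 4 of 5. The shares over all genes are the 62.5% and 35.5% given above. SERPINA3, which encodes alpha-1-antichymotrypsin, a close relative of SERPINA1, was the only one past 2-fold. It had 1.87, 16.9 and 2.71 TPM with GFP and 14.1, 7.56 and 33.3 TPM with TIPARP. The lines overlapped through A549-GFP replicate 2, and the difference in mean log2 TPM of 1.79 became 2.76 without it, 1.17 without A549-GFP replicate 1 and 1.23 without A549-TIPARP replicate 3 (limma unadjusted p = 0.0656, adjusted p = 0.994 with all libraries). FGL1 had 51.0, 195 and 58.9 TPM with GFP and 50.4, 41.5 and 100.5 TPM with TIPARP, and LCN2, a siderophore-binding protein, had 25.6 to 193 TPM over all libraries. CRP, SAA1, SAA2, ORM2, HP and HAMP were listed at the floor.

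Of 10 listed genes of the interleukin-6 pathway 8 were analysed, with IL6 and LIFR at the floor, and none had an unadjusted p-value under 0.05. A549-GFP replicate 2 was the highest of its line for 7 of these 8 and A549-TIPARP replicate 3 for 4. Over all genes these shares were 62.5% and 35.5%. LIF, a cytokine that signals through the same receptor subunit as interleukin-6, had 56.8 to 74.8 TPM. It was the exception in A549-GFP replicate 2 and had no excess in A549-TIPARP replicate 3 either. The kinase JAK1 had 28.9 to 45.1 TPM. Of 14 listed liver transcription factors 12 were analysed, and 1, CEBPB, had an unadjusted p-value under 0.05, against 3.85% of all genes. Of the 12, 11 were above 2 TPM in at least 1 library of each line. A549-GFP replicate 2 and A549-TIPARP replicate 3 were each the highest of their lines for 9 of these 11. The shares over all genes are those just given. CEBPB had 175, 350 and 179.5 TPM with GFP and 126, 149 and 142 TPM with TIPARP. All A549-TIPARP libraries were below all A549-GFP libraries, and the limma log2 difference was -0.68 (standard error 0.27, unadjusted p = 0.0340, adjusted p = 0.994). The difference in mean log2 TPM of -0.68 became -0.35 without A549-GFP replicate 2. CEBPD, another C/EBP factor, had 92.8, 97.4 and 92.5 TPM with GFP and 121, 91.5 and 136 TPM with TIPARP, with an overlap. With the 2 libraries that stood apart left out, the difference in mean log2 TPM of the listed genes given above with a p-value was -0.63 for F2, 0.57 for ANXA5, 0.22 for PROCR, 0.95 for SERPINF2, 2.20 for SERPINA3 and -0.37 for CEBPB.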

How the data were processed

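RNA-seq was carried out on 3 libraries each of A549-GFP and A549-TIPARP cells, from stranded mRNA libraries sequenced as paired ends. Using Strand NGS with its default settings and hg38 transcripts, the authors aligned the reads, and they deposited log2 TPM for each gene, library by library. Software version, annotation release and handling of multiply mapping reads are not given in the sources used here. TPM below 1 stood at a log2 value of 0, and without counts the depth is unknown.

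Libraries were grouped by sample title. Genes above 2 TPM in at least 1 of 6 libraries were kept, as in the study. TPM was taken back from the deposited values, 1 was added before taking log2 again, and the 2 lines were compared by limma 3.58.1 in R 4.3.3, allowing a trend of variance on expression and using no block, with Benjamini-Hochberg adjustment over 13181 genes. The script was tested on simulated data. Ratios were tested by exact permutation in scipy 1.17.1. Coordinates are from GENCODE 44 (hg38).

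The 10 genes and all lists were chosen with earlier results of these data known. Other genes named were those of each list with an unadjusted p-value under 0.05 or past 2-fold, and its 2 highest. The 5 genes outside the lists nearest to the fibrinogen profile were named too. Alternatives were a pseudocount of 0.1, the deposited values, other filters, median-ratio scaling, no trend, arithmetic means, a replicate block and each library left out. One listed gene and 1 motif are not reported here.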

Additional observations from a re-analysis of the deposited data

How the results depend on the processing

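No alternative gave any of the 10 genes an adjusted p-value under 0.05, and SERPINA1 and F2R kept a higher mean and TFPI2 a lower mean in A549-TIPARP cells in all 15. Their sizes moved all the same, and with 1 library at a time left out the limma log2 difference ran from 0.14 to 1.06 for SERPINA1, from 0.23 to 0.37 for F2R and from -0.36 to -0.0085 for TFPI2. Without A549-GFP replicate 2 or without A549-TIPARP replicate 2, 1 gene, SERPINA1, was past 2-fold, and the number past 2-fold was 0 without any other single library. When 1 library at a time was left out, the limma log2 difference ran from -0.90 to 0.24 for FGA, from -0.58 to 0.44 for FGB, from -0.42 to 0.78 for FGG, from -0.70 to 0.17 for F5 and from -0.46 to 0.72 for TFPI. It ran from -0.25 to 0.076 for F2RL1 and from -0.26 to 0.0045 for F3. FGA, F5, F2RL1 and F3 changed sign without A549-GFP replicate 2, FGB without it or without A549-TIPARP replicates 1 or 2, and FGG and TFPI without A549-GFP replicates 1 or 3 or A549-TIPARP replicate 3. The median over the 10 genes ran from -0.30 to 0.30. The difference in log2 ratio ran from 0.24 to 0.52 for F2R to F2RL1, from 0.20 to 0.55 for FGB to FGA and from 0.049 to 0.34 for FGG to FGB. The F3 to TFPI ratio ran from -0.72 to 0.36 and changed sign without A549-GFP replicate 1 or A549-TIPARP replicate 3. Without A549-GFP replicate 2 and A549-TIPARP replicate 3, an alternative chosen after the data were seen, the difference was 0.06 for F2RL1 and 0.13 for F3. With arithmetic means of TPM it was -0.29 for TFPI. Genes called over the whole table numbered 2, and 1 without a filter or with the replicate block, and from 1 to 3 when 1 library was left out. Same-numbered libraries correlated in their deviations with r = 0.452, -0.516 and -0.379 in experiments 1, 2 and 3. These deviations were taken from the mean of only 3 libraries a line. They cannot show whether the experiments paired the libraries. The replicate block changed no call on the 10 genes. Over all genes, 259 were past 2-fold in the mean log2 TPM and limma called 2. With 3 libraries a line, a gene that was not called may still differ, even past 2-fold.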
